A study of Rattus norvegicus with 24 samples.

Results

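The 8 genes described here lie in the rat major histocompatibility complex on chromosome 20 and were higher in the carotid bodies (CBs) of spontaneously hypertensive (SH) rats in earlier results of these data. They are 8 of the 32623 Ensembl genes counted. RT1-A1, RT1-S2, RT1-DOa and Psmb8 have immune functions, and Slc39a7, Vars2, Cchcr1 and Tcf19 are neighbors in the region that are grouped here as non-immune. Each was found by the identifier that the study's own table of gene names pairs with its symbol, and that table, as read here, lists only genes higher in SH rats. The members were thus chosen by their strain difference in these libraries, so that difference and its calls are given below as a description, and a direction of higher in SH rats supports nothing. The measures that did not choose them are the comparison of left with right CBs and the 1 library that has no column in that table.

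The CB is a small organ beside the carotid artery on each side of the neck that senses oxygen in the blood. Polyadenylated RNA was sequenced separately from the left and right CBs of 6 male WKY/NHsd rats, the normotensive control strain, and 6 male SHR/NHsd rats, 12 to 14 weeks old, giving 24 libraries. No animal was treated, all were perfused with cold phosphate-buffered saline before dissection, and both strains are inbred, so a strain difference cannot be told apart from any other genetic difference between these colonies. Values are over 23 libraries, 12 WKY and 11 SHR. The right CB of SH rat 34 was left out and is described on its own below. A WKY library held 9334257 to 11372821 counts in total, and an SHR library 9198341 to 13655419. Levels are CPM, the counts scaled to library size with the TMM method, and the sides of a rat were averaged before each mean ± SD over rats.

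The RT1 complex is the rat's major histocompatibility complex. Class I molecules carry peptides from inside the cell to its surface for cytotoxic T lymphocytes and natural killer cells to read, and class II molecules do the same with engulfed material for helper T lymphocytes. The immunoproteasome cuts many of the peptides that class I molecules carry, and interferons raise both. Dense gene content places many genes with no immune role between the RT1 genes.

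RefSeq promoter sequences, from 250 bases before to 50 bases after the annotated start in build GRCr8, were matched for 8 of 8 members. GRCr8 is a reference assembly, so the letters are those of neither strain studied. The promoters below are shown because RT1-A1 had the largest strain difference of the 8 genes, RT1-A2 is a class I gene of the same name series that is read together with it below, and Psmb8 is the immunoproteasome member. Capitals mark matches to GAANNGAAA, the core of an interferon response element, searched on both strands and here lying on the strand opposite to the gene.
RT1-A1, chr20:4906959-4907258, plus strand: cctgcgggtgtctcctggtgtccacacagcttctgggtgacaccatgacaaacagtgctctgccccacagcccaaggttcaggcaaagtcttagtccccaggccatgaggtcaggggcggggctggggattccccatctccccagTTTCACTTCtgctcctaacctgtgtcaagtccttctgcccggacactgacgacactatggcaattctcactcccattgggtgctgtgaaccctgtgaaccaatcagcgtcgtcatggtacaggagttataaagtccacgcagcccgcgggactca
RT1-A2, chr20:4872621-4872920, plus strand: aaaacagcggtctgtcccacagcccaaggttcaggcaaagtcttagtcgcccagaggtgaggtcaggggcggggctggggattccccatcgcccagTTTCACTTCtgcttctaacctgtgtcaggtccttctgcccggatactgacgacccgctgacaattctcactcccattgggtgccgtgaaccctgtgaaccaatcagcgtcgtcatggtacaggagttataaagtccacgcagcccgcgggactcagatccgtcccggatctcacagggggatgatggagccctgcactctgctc
Psmb8, chr20:4656982-4657281, minus strand: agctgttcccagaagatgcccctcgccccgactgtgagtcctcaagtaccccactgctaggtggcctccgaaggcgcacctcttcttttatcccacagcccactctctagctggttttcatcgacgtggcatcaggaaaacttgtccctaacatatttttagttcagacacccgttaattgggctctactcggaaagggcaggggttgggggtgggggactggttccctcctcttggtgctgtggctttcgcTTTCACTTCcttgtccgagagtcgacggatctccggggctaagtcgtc

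The match began 105 bases before the RT1-A1 start, 154 bases before the RT1-A2 start and at base 3 after the Psmb8 start. Vars2 was the only other member with a match, and 8.54% of all 33469 promoters in the table held one. CCAAT, also searched on both strands, was found in the promoters of RT1-A1, RT1-DOa, Psmb8 and Tcf19 and in 37.5% of all promoters. Aligned to each other, the RT1-A1 and RT1-A2 promoters were identical at 232 of 251 positions (92.4%). A match is a description of these letters, and binding was not measured.

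Of the 8 genes, 6 passed the threshold of the strain fit (adjusted p under 0.05, edgeR quasi-likelihood test), all higher in SH rats, beside 10.2% of all 14257 genes tested that were called higher. RT1-S2 and Tcf19 did not pass it. The strain fit has no term for the rat, so its calls and SEs treat both CBs of a rat as independent libraries. The median log2 fold change of the 8 was 0.47, against 0.01 over all genes tested. In 4 of the 8 (RT1-A1, RT1-DOa, Slc39a7 and Cchcr1) every SHR library lay above every WKY library, beside 0.926% of all genes tested. The same 4 were also without overlap when the sides of a rat were averaged, beside 3.39% of all genes tested. Nothing is read from these counts, since the same contrast picked the genes.

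**Figure D1:**
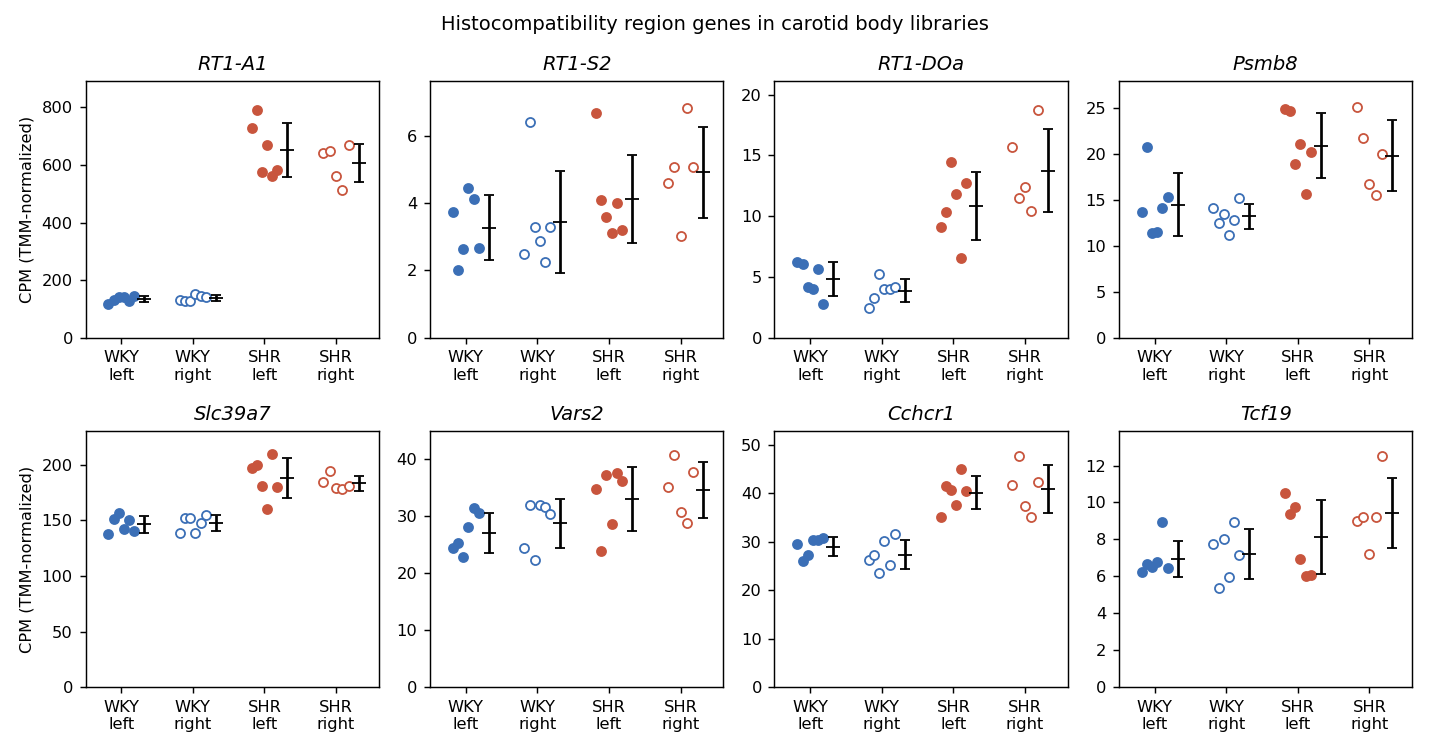
CPM (TMM-normalized, y axis from 0) of each of the 8 genes in each of the 23 libraries, by strain and side (x axis); points are libraries, filled for left and open for right, and bars are the mean ± SD over libraries. The WKY and SHR points of RT1-A1, RT1-DOa, Slc39a7 and Cchcr1 do not overlap, and those of RT1-S2, Psmb8, Vars2 and Tcf19 do.

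RT1-A1 encodes the heavy chain of a classical class I molecule, the kind that most nucleated cells display. Its lowest, median and highest values were 115, 136 and 152 CPM among WKY libraries, and among SHR libraries 515, 641 and 792 CPM, so the groups were far apart. Over rats it averaged 136 ± 8.64 CPM over the 6 WKY rats and 635 ± 70.7 CPM over the 6 SH rats (mean ± SD), 4.69 times as high, a log2 fold change of 2.22 (SE 0.0640). Single libraries held 1144 to 1640 counts in WKY and 4904 to 8949 in SH rats, so counting error was small. The coefficient of variation over rats was 6.37% in WKY and 11.1% in SH rats.

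RT1-A2, another class I heavy chain, differed less. It averaged 39.8 ± 2.39 CPM over the 6 WKY rats and 52.1 ± 4.51 CPM over the 6 SH rats (mean ± SD), 1.31 times as high. How reads that match both genes were assigned is not given in the sources used here, and the strains can differ in RT1 sequence, so each row alone is uncertain. The sum of both rows does not depend on how counted reads are divided between them. Reads left uncounted, or counted in other RT1 rows, would still be missing from it, which was not tested. This sum averaged 175 ± 9.96 CPM over the 6 WKY rats and 687 ± 72.2 CPM over the 6 SH rats (mean ± SD), 3.92 times as high. RT1-A1 took 77.3% ± 1.18 (SD, n = 6) of the summed counts in WKY and 92.4% ± 0.805 (SD, n = 6) in SH rats. This share needs no scaling between libraries, and it ran from 75.1% to 79.4% among WKY libraries and from 91.2% to 94.3% among SHR ones.

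**Figure D2:**
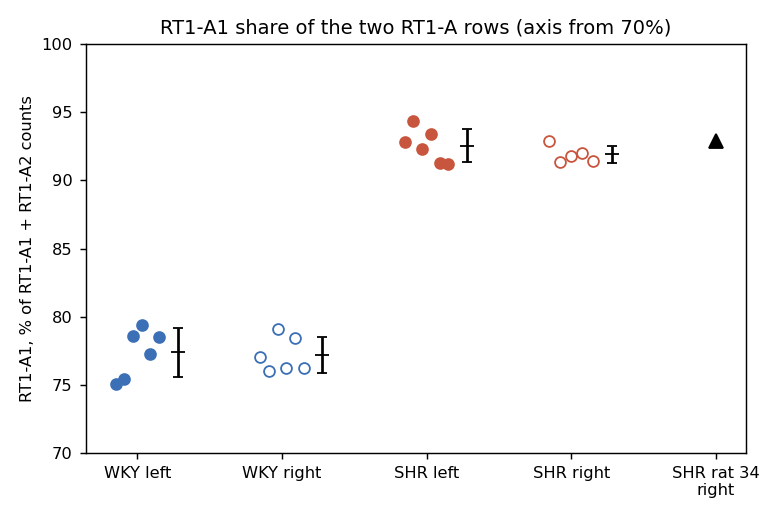
Counts of RT1-A1 as a percentage of RT1-A1 plus RT1-A2 counts (y axis, drawn from 70%) in each library, by strain and side (x axis); circles are libraries with the mean ± SD beside them, and the triangle is the right CB of SH rat 34. The 12 WKY libraries lie between 75.1% and 79.4%, and the 11 SHR libraries and the triangle, at 92.9%, lie between 91.2% and 94.3%.

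RT1-S2 is a nonclassical class I gene, and it was near the lower end of what these libraries can measure, with 20 to 61 counts in WKY and 28 to 70 in SH rats. Its lowest, median and highest values were 2.02, 3.08 and 6.42 CPM in WKY and 3.04, 4.10 and 6.82 CPM in SH rats. The groups overlapped, and 2 of 11 SHR libraries exceeded the highest WKY library. Means over rats were 3.35 ± 0.50 CPM over the 6 WKY rats and 4.37 ± 1.05 CPM over the 6 SH rats (mean ± SD), with a log2 fold change of 0.42 (SE 0.187).

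RT1-DOa encodes the alpha chain of DO, a class II molecule that stays inside the cell and tunes which peptides other class II molecules receive, chiefly in B lymphocytes and dendritic cells. Its lowest, median and highest values were 2.48, 4.10 and 6.25 CPM among WKY libraries, and among SHR libraries 6.54, 11.8 and 18.7 CPM. The lowest SHR library was thus just above the highest WKY library. Over rats it averaged 4.34 ± 0.525 CPM over the 6 WKY rats and 12.1 ± 2.45 CPM over the 6 SH rats (mean ± SD), with a log2 fold change of 1.49 (SE 0.163). The spread among SH rats, 20.2% of their mean, was second only to RT1-S2 among the 8 genes.

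Psmb8 encodes a catalytic subunit of the immunoproteasome. Its lowest, median and highest values were 11.1, 13.6 and 20.7 CPM in WKY and 15.5, 20.1 and 25.1 CPM in SH rats. Only 5 of 11 SHR libraries exceeded the highest WKY library, while 11 of 12 WKY libraries were below the lowest SHR library. The left CB of WKY rat 33, at 20.7 CPM, was the 1 WKY library inside the SHR range. Means were 13.8 ± 1.92 CPM (SD, n = 6) and 20.4 ± 3.44 CPM (SD, n = 6), with a log2 fold change of 0.56 (SE 0.101).

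The 4 non-immune genes had log2 fold changes of 0.28 to 0.52. Slc39a7, a transporter that releases zinc from the endoplasmic reticulum and Golgi, averaged 147 ± 6.31 CPM over the 6 WKY rats and 184 ± 13.6 CPM over the 6 SH rats (mean ± SD). Its WKY libraries ran from 138 to 157 CPM (median 149) and its SHR libraries from 160 to 210 CPM (median 181). With the smallest spread over rats of the 8 genes in WKY (4.30% of the mean), the log2 difference of 0.34 (SE 0.0428) sufficed to separate every library of the strains.

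Cchcr1, a coiled-coil protein of the centrosome, averaged 28.2 ± 2.16 CPM over the 6 WKY rats and 40.2 ± 2.55 CPM over the 6 SH rats (mean ± SD), a log2 fold change of 0.52 (SE 0.0620). Its libraries ran from 23.5 to 31.6 CPM (median 28.4) in WKY and from 35.1 to 47.8 CPM (median 40.6) in SH rats, without overlap. Vars2, the mitochondrial valyl-tRNA synthetase, ran from 22.3 to 32.1 CPM (median 29.3) in WKY and from 24.0 to 40.8 CPM (median 35.1) in SH rats, and the groups overlapped. It averaged 27.98 ± 3.64 CPM (SD, n = 6) against 33.4 ± 2.84 CPM (SD, n = 6), a log2 fold change of 0.28 (SE 0.0849).

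Tcf19, a nuclear protein with a PHD finger that is expressed in dividing cells, was the least separated of the non-immune genes beside Vars2. It ran from 5.37 to 8.97 CPM (median 6.73) in WKY and from 6.01 to 12.5 CPM (median 9.23) in SH rats. Means were 7.07 ± 1.03 CPM (SD, n = 6) and 8.57 ± 1.11 CPM (SD, n = 6), and the log2 fold change was 0.30 (SE 0.121). For all 8 genes both WKY group means, left and right, were below both SHR group means. The choice of members favors this order, and its share over all genes was not counted, so nothing is read from it.

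Side was tested separately in each strain to ask whether the organ's side matters for these genes, a question the choice of members did not use. The edgeR quasi-likelihood test called 0 of 8 genes in WKY, 0 of 8 in SH rats and 0 of 8 over both strains, beside 0% of all genes tested in each. With no term for the rat, the counts at an unadjusted p under 0.05 were also 0 of 8 in each of the 3 comparisons, whereas 285 of 14239 genes in WKY, 781 of 14200 in SH rats and 702 of 14257 over both reached it. With the rat as a block, since both CBs come from 1 animal, RT1-DOa in SH rats had an unadjusted p of 0.0387 (edgeR; log2 -0.37, left lower), no member was called, and 1 of 14215 genes was. How many of all genes had an unadjusted p under 0.05 in that fit was not counted, so nothing is read from this value. Left and right libraries overlapped for each gene in each strain.

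The intervals, from the fits with no term for the rat, show how large a difference between sides could have gone unseen. For RT1-A1 the left minus right log2 difference was -0.04 in WKY (estimate ± 2 SE, -0.17 to 0.09) and 0.11 in SH rats (-0.10 to 0.32). The tightest was Slc39a7 in WKY, with -0.01 (-0.12 to 0.10). For RT1-S2, the least abundant of the 8 in counts, the WKY interval ran from -0.62 to 0.48, so a side difference within it could have gone unseen. WKY rat 33 had a left minus right difference of -1.46 in log2(CPM + 0.5) for this gene.

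**Figure D3:**
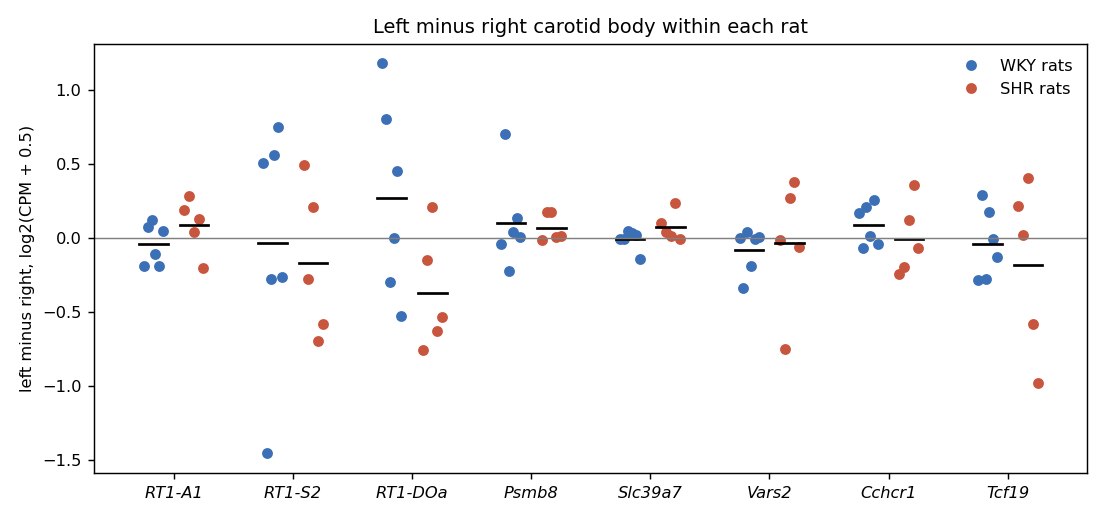
Left minus right CB of the same rat in log2(CPM + 0.5) (y axis) for each of the 8 genes (x axis), with 6 WKY and 5 SH rats as points and black lines at the strain means. The points of every gene lie on both sides of 0 over both strains. Those of RT1-DOa lie above 0 in 4 of 6 WKY rats, among them WKY rat 36 at 0.0027, and in 1 of 5 SH rats.

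RT1-DOa was the gene whose side difference varied most between strains. In WKY the left CBs averaged 4.82 ± 1.39 CPM (SD, n = 6; lowest 2.75, median 4.92, highest 6.25) and the right CBs 3.86 ± 0.934 CPM (SD, n = 6; lowest 2.48, median 3.98, highest 5.26). In SH rats the left CBs averaged 10.8 ± 2.82 CPM (SD, n = 6; lowest 6.54, median 11.1, highest 14.5). The 5 right CBs of SH rats were at 15.7, 11.5, 12.4, 10.4 and 18.7 CPM in rats 30, 31, 33, 36 and 37. The left CB was the higher in 4 of 6 WKY rats and in 1 of 5 SH rats. In WKY rat 36, counted among these 4, the sides were nearly level (3.976 CPM left, 3.967 CPM right). The strain by side interaction was -0.65 on the log2 scale (SE 0.307) with an unadjusted p of 0.0429 and an adjusted p of 0.999 (edgeR), so it did not pass the threshold. It was the 1 member of 8 with an unadjusted p under 0.05, 438 of 14257 genes had one, and 0% of genes were called. With the right CB of SH rat 34 included, the unadjusted p was 0.195 (edgeR).

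The right CB of SH rat 34 has no column in the study's table of genes higher in SH rats, so its values did not choose the genes. It stood apart from the other 23 libraries in tissue content. Thyroglobulin (Tg), the thyroid's hormone precursor, had 63413 counts, against 1 to 2179 elsewhere. The summed level of 6 glomus cell markers, genes of the chemosensory cells, was 77.6 CPM, against 925 to 1404 CPM over WKY and 1170 to 2041 CPM over the other SHR libraries, although 0 of the 6 markers was at 0 counts. For this comparison all 24 libraries were scaled together, and the TMM factor of this one was 0.773 against 0.975 to 1.03 for the others, which raises its CPM. Levels in unscaled CPM, by library total with no such factor, are therefore given beside those values that move.

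In that library RT1-A1 was at 451 CPM (3645 counts), above the highest WKY library (151 CPM) and below the lowest other SHR library (508 CPM). In unscaled CPM it was at 349, also between the highest WKY (147) and the lowest other SHR library (513). Slc39a7 was at 166 CPM, above the highest WKY library (155 CPM), but in unscaled CPM it was at 128, below the lowest WKY library (134). Tcf19, with 100 counts, was at 12.4 CPM, above the highest WKY library (8.87 CPM), level with the highest other SHR library (12.3 CPM) and above the 6.87 CPM of the same rat's left CB. In unscaled CPM Tcf19 was at 9.57, against at most 9.02 in WKY libraries. The RT1-A1 share of RT1-A1 plus RT1-A2 was 92.9%, within the range of the other SHR libraries.

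RT1-DOa was in the WKY range there. It was at 4.70 CPM (38 counts), where WKY libraries ran from 2.47 to 6.23 CPM, and under the 11.8 CPM of the same rat's left CB. RT1-S2 was at 2.10 CPM (17 counts), also inside the WKY range and below the other SHR libraries, and in unscaled CPM at 1.63, below the lowest WKY library (2.06). Cchcr1, at 31.1 CPM, was just under the highest WKY library (31.3 CPM). In unscaled CPM it was at 24.0, near the lowest WKY library (23.9, highest 31.4). Psmb8 (18.4 CPM) and Vars2 (29.95 CPM) were where the strains overlap. In unscaled CPM, Psmb8 and Vars2 (14.3 and 23.2) were inside the WKY range and below the other SHR libraries. In all, 3 of the 8 genes exceeded every WKY library in scaled CPM and 2 of the 8, RT1-A1 and Tcf19, in unscaled CPM. The share of all genes that did so in this library was not counted, so nothing is read from these numbers. The part of tissue content in these values was not tested.

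Other genes, from a class I, a class II and an interferon list, could be followed only where the table of names pairs them with an identifier. That again means only genes higher in SH rats. Of the 1273 paired genes, 64.2% were called higher, against 10.2% of all genes tested, so nothing is read from the counts of calls below. Of 17 genes on the class I list, not all of which present peptides, 5 were paired and 5 were called higher, with a median log2 fold change of 0.41. They were Tapbp (0.39, SE 0.0583) and Tapbpl (0.53, SE 0.0588), which load or edit class I peptides, Hfe (0.30, SE 0.0951), RT1-A2 (0.41, SE 0.0623) and the class I gene RT1-CE12 (1.36, SE 0.185). Of 10 class II presentation genes, 2 were paired. Cd74, the invariant chain, was called higher at 0.31 (SE 0.108), and Ciita, the class II transactivator, was at 0.30 (SE 0.178) and was not called.

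Of 10 interferon genes, 7 were paired and 5 called higher, with a median of 0.43, among them Ifitm2 (0.43, SE 0.0565) and Ifnar1, a chain of the type I interferon receptor (0.27, SE 0.0347). Ifit1, an antiviral protein that binds foreign RNA, was at 0.05 ± 0.0623 CPM (SD, n = 6) in WKY, with 0 counts in at least 1 library, and at 41.5 ± 10.8 CPM (SD, n = 6) in SH rats. These lists were directed by the same table and support no direction for the members.

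Markers of other cells were likewise taken from the paired genes, so their direction was set by that table and their calls are no finding. All 12 macrophage markers were called higher in SH rats (median log2 fold change 0.61), and their summed level was 453 to 758 CPM in WKY libraries and 642 to 985 CPM in SHR libraries, which overlap. Of 5 dendritic cell markers, 3 were called higher (summed 373 to 589 against 417 to 883 CPM, nearly all of it Cd74, which with Ciita is also on the class II list), of 9 T and NK lymphocyte markers 1 (10.9 to 22.8 against 18.5 to 33.2 CPM), and of 5 B lymphocyte markers 2 (10.8 to 23.8 against 21.3 to 42.2 CPM). Of 6 glomus markers, 5 were called higher, of 3 adipocyte and thyroid markers 1 (summed 5.08 to 30.5 against 3.55 to 225 CPM), and of 3 smooth muscle markers 0 (237 to 855 against 383 to 1097 CPM). Klrb1b, of natural killer cells, and Adipoq, of adipocytes, were the markers at 0 counts in some library. In whole CBs, more cells of a type and more RNA per cell cannot be told apart, and the part of these cells in the RT1 and Psmb8 differences was not tested.

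After the mean of each strain and side was removed, the genes most like each member over the 23 libraries were sought among 1272 paired genes, as a description over libraries that share rats and depth. RT1-DOa was most like Cd74 (Pearson r = 0.79), Cytip (0.785) and LOC690097 (0.783). RT1-A1 was most like Arid5a (0.785), Atf5 (0.743) and Ppp1r14a (0.721). The first for each of the others were Wnt16 for RT1-S2 (0.698), Actg1 for Psmb8 (0.653), Myom3 for Slc39a7 (0.707), Scrt1 for Vars2 (0.778), Sap25 for Cchcr1 (0.801) and Spef1 for Tcf19 (0.687). No member was among the 3 genes most like another. Over the 28 pairs of members r ran from -0.184 to 0.574 with a median of 0.106, against a median of 0.0225 over all pairs of paired genes. The highest were Vars2 with Cchcr1 (0.574) and RT1-A1 with Psmb8 (0.429).

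The count table also lists other rows between the members. Over the 1255 rows of the whole table with a symbol and a place in RefSeq GRCr8, 1224 of 1254 neighboring steps stayed on 1 chromosome. Between RT1-S2 and RT1-A1 it lists 181 rows. Of these, 15 carry a symbol, and the 14 with a place in RefSeq all lie on chromosome 20 between the outermost members. Their internal order, however, does not follow RefSeq (6 of 13 neighboring steps run the same way), and RT1-A2 falls outside the run. The comparison by position was planned only for the case that the order is followed, so it is void as planned, and the counts below describe these listed rows as a set and are not evidence about the region. Of the 181 rows, 75 were under the count filter, 21 of them with no counts at all, and 106 were tested.

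In the 106 tested rows, 20 (18.9%) were called higher and 20 (18.9%) lower in SH rats, beside 10.2% and 9.83% of all genes tested. With the counts of both CBs of a rat summed, so that each of 12 rats enters once, 18 of 112 (16.1%) were higher and 16 (14.3%) lower, beside 6.70% and 6.80% of all genes. Without the 8 members, 14 of 98 (14.3%) were higher and 20 (20.4%) lower. The higher share depends on the members' choice, while no member was lower. Of 91 tested rows without a symbol, 8 were higher and 20 lower. The table of names had taken many of the genes that were higher, which lowers the count of higher calls among these rows. How far this accounts for the split was not tested. The matching shares over all genes without a symbol were not counted, so nothing is read from it. Without the members, called changes of at least 1 on the log2 scale made up 5 of the 98 rows (5.10%), against 2.37% of all genes, and 5 rows, 2 higher and 3 lower, had no overlap between the libraries of the strains (5.10% against 2.01%).

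**Figure D4:**
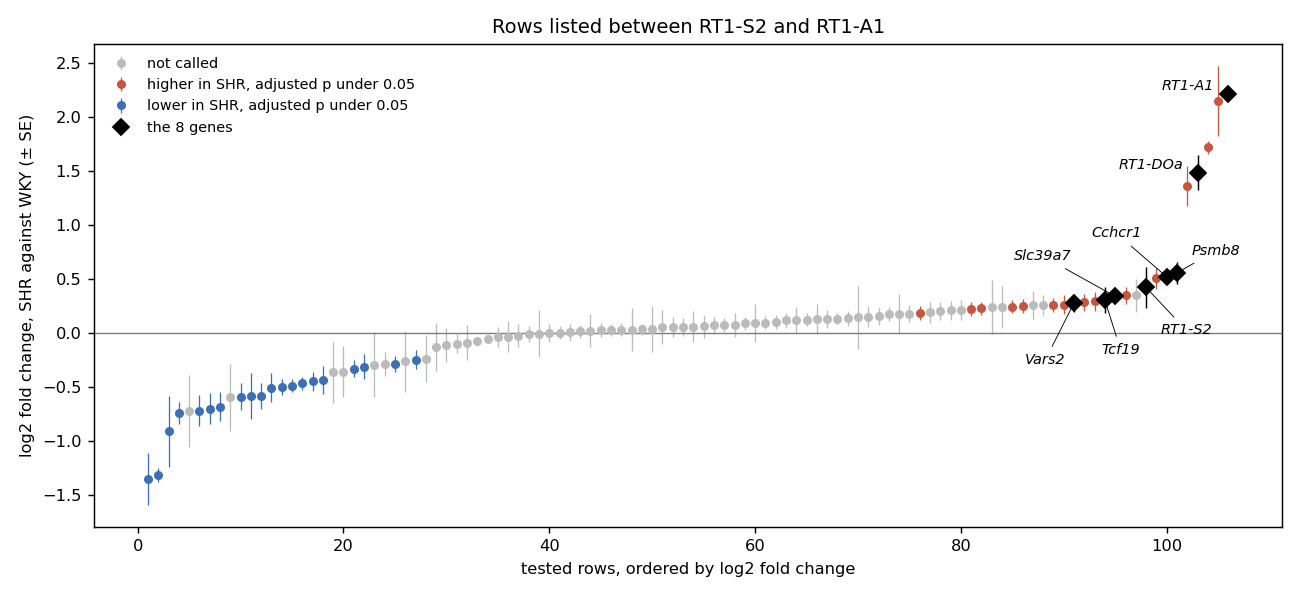
Log2 fold change of SHR against WKY ± SE (y axis) for the 106 tested rows listed between RT1-S2 and RT1-A1, ordered by that value (x axis, rank); diamonds are the 8 genes and colors show the call at an adjusted p under 0.05. Of the 106 rows 20 are called higher and 20 lower, and RT1-A1 has the highest value.

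Besides the members, 7 rows of the run had a symbol and 6 were called higher. A symbol comes only from the table of genes higher in SH rats, and 64.2% of all 1273 paired genes were called higher. Nothing is therefore read from that count or from the direction of these rows. LOC103690108 was at 39.2 CPM in WKY and 128 CPM in SH rats (log2 fold change 1.72, SE 0.0620) with no overlap between the libraries. RT1-CE12 was the next at 1.36, also without overlap, followed by Fkbpl (0.51), Gpank1 (0.35), the receptor gene Ager (0.29) and Notch4 (0.28). Msh5, a meiotic recombination gene, was at 0.35 (SE 0.155) and was not called.

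Some rows with no symbol fell. These were singled out after their values were seen, and their SEs and p-values treat both CBs of a rat as independent libraries. ENSRNOG00000000723 went from 100 ± 6.75 CPM over the 6 WKY rats to 40.98 ± 5.39 CPM over the 6 SH rats (mean ± SD), a log2 fold change of -1.32 (SE 0.0649; adjusted p = 1.58e-15, edgeR), with 777 to 1249 counts against 348 to 543. ENSRNOG00000030729 went from 26.0 ± 7.50 to 9.73 ± 3.72 CPM (SD, n = 6 each; log2 fold change -1.36, adjusted p = 2.69e-04, edgeR), with overlap. ENSRNOG00000058987 was higher at 2.15 (SE 0.327; adjusted p = 1.45e-05, edgeR), with 0 to 15 counts in WKY and 9 to 43 in SH rats.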

How the data were processed

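The authors isolated total RNA from microdissected CBs, made poly-A libraries with the TruSeq Stranded mRNA kit, aligned paired-end reads (STAR) and assigned them to genes (featureCounts). They deposited raw counts per Ensembl gene, without normalization. Versions, genome build, and strand and multi-mapping settings are not given in the sources used here, so RT1 genes with near-identical copies are uncertain.

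Counts were analyzed in R 4.3.3 with edgeR 4.0.16 (quasi-likelihood F-test with robust dispersions, TMM scaling, side as covariate, genes with a mean normalized count above 10, Benjamini-Hochberg adjustment at 0.05 over all genes tested). CPM is TMM-normalized, and 0.5 was added before taking log2. Tests are two-sided. Tables and sequences were handled with pandas 2.3.3 and Biopython 1.88, and figures drawn with matplotlib 3.10.9. The fits were run on simulated data in which all libraries were drawn independently and the strain changes set were larger than those of most members. Such data cannot check the lack of a term for the rat.

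Groups came from the labels. The members, gene lists and tests were chosen with earlier results of these data known. Genes named are the 8 members, other paired genes of the region, paired list genes and the 3 genes most like each member. Symbols came from a table of the study, of which 1391 rows were read and 1273 identifiers have a symbol. The RefSeq GRCr8 table of 47357 genes, whose Ensembl column is filled for 0, gave only chromosomes and order. The right CB of SH rat 34 was left out because that table has no column for it. The left and right CB of one number come from one rat per the labels, and their deviations from group means correlated with a median of 0.115 (-0.0359 to 0.283, 11 rats). For 187 pairs of libraries of other rats and groups the median was -0.00965 (-0.342 to 0.433), so these correlations cannot check the labels. Alternatives were DESeq2 size factors and the DESeq2 1.42.0 test, other filters, all 24 libraries, sums per rat, each side alone, no side covariate, replicate blocks and leaving out each rat. No set test was run, because names are incomplete.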

Additional observations from a re-analysis of the deposited data

Results flagged for a closer look

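In 32 groups, 8 genes in each strain and side, 3 libraries lay farther from the rest of their group than Dixon's limit allows, and chance flags about 1 in 20 groups. RT1-S2 was at 6.42 CPM in the right CB of WKY rat 33, where the next library of the group was at 3.30 CPM. RT1-S2 was also at 6.68 CPM in the left CB of SH rat 30, where the next was at 4.10 CPM. Tcf19 was at 8.94 CPM in the left CB of WKY rat 37, where the next was at 6.79 CPM. RT1-S2 had 20 to 70 counts in a library and Tcf19 51 to 127, so counting error is a visible part of their spread.

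In the right CB of SH rat 34, which the comparisons over 23 libraries leave out, 3 genes were above every WKY library. How many of all genes were so there was not counted, so the number 3 has no background. RT1-A1 was at 451 CPM against at most 151 CPM, Slc39a7 at 166 CPM against at most 155 CPM, and Tcf19 at 12.4 CPM against at most 8.87 CPM. In CPM by library total, with no scaling factor, Slc39a7 was at 128 there, below the lowest WKY library (134). The glomus markers of that library summed to 77.6 CPM, and the part of its tissue content in these values was not tested.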

How the results depend on the processing

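All 8 log2 fold changes between strains stayed positive under each of 22 alternatives, a direction the choice of members fixes. RT1-A1 ran from 2.11 to 2.29, and RT1-DOa was at 1.17 in left and 1.82 in right CBs alone. With RT1-A1 and RT1-A2 summed, an alternative chosen after seeing the data, the ratio of 4.69 became 3.92. In the region, the 20 rows called higher became 13 in left and 8 in right CBs alone, and the 20 called lower became 11 and 10. Fewer samples enter these fits, and the shares of all genes fell too, to 4.51% higher and 4.42% lower in left and 2.84% and 3.04% in right CBs. Leaving out each rat gave 16 to 23 rows higher and 16 to 21 lower, and 5 to 7 members called. Vars2 lost its call with all 24 libraries, in each side alone, with the number block and without WKY rat 32, WKY rat 34 or SH rat 37, and Tcf19 gained one without WKY rat 37. The 0 members called between sides or for the interaction stayed at 0 in every alternative run. The unadjusted interaction p of RT1-DOa (edgeR) was 0.195 with all 24 libraries and, leaving out 1 rat, ran from 0.0157 without WKY rat 41 to 0.151 without WKY rat 32.

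Rat numbers shared between strains belong to different rats. The deviations of such libraries correlated from -0.342 to 0.0709 (7 pairs of libraries), which cannot settle whether a number marks a block. With the number as a replicate block, 14 rows were higher and 19 lower, and 5 members were called. With the rat as a block, 0 of 8 members were called in WKY, in SH rats, over both strains or for the interaction, and the interaction of RT1-DOa had an unadjusted p of 0.0416 (edgeR). With DESeq2 size factors, like the totals added after seeing the data, 4 rather than 3 genes of the right CB of SH rat 34 exceeded every WKY library, Cchcr1 being the addition, and in CPM by library totals 2 did. The matching share of all genes was not counted under any scaling. Depth limits RT1-S2, RT1-DOa and Tcf19, whose libraries hold 20 to 174 counts.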
